A study of Arabidopsis thaliana with 6 samples.

Results

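The proteasome-annotated genes of developing Arabidopsis thaliana seeds were 38 loci, chosen as every row of the deposited table whose annotation holds the word proteasome, out of 34001 loci. Seeds of strain Columbia-0 were sampled 13 days after flowering, with 2 biological replicates each of wild type (WT), ar21 and i4g1. All plants grew under 16 hours of light and 8 hours of dark at day and night temperatures of 22 °C and 17 °C, and each library came from pooled seeds of primary shoots. Knowledge of the study, which the labels do not spell out, makes i4g1 a mutant of eIFiso4G1 (AT5G57870), a scaffold of plant translation initiation, and ar21 a line mutated in the same gene. The labels name no allele, no treatment and no batch, and the RNA of a pool does not show whether fewer cells of a type or less RNA per cell lie behind a lower value.

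The 26S proteasome degrades proteins that carry ubiquitin chains. Its 20S core is a barrel made of outer rings of alpha subunits, which gate the entrance, and inner rings of beta subunits, of which PBA, PBB and PBE carry the protease sites. The 19S cap holds a ring of AAA ATPases (RPT), which unfold and thread the substrate, and non-ATPase subunits (RPN), which form the scaffold and bind and remove ubiquitin. In Arabidopsis most subunits are encoded by a pair of similar genes, and assembly factors, alternative caps and inhibitors act on the same particle.

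The word proteasome does not collect every subunit gene and collects some genes that are none. Of the 38 members, 27 encode subunits of the 26S particle. These were 11 alpha ring genes (PAA1, PAA2, PAB1, PAC1, PAD1, PAD2, PAE1, PAE2, PAF1, PAF2 and PAG1), 7 beta ring genes (PBB2, PBC1, PBC2, PBD1, PBD2, PBE1 and PBG1), 1 ATPase (RPT5B) and 8 non-ATPase genes (RPN1A, RPN1B, RPN2A, AT1G04810, RPN5A, RPN7, RPN9A and RPN9B). A further 4 are an alternative cap (PA200), an annotated maturation factor UMP1 (AT1G67250), an annotated inhibitor (AT3G53970) and a putative regulatory subunit (AT5G57950). The last 7 carry the word only in the name of a domain or family. They are 4 subunits of the COP9 signalosome (CSN2, CSN3, CSN4 and CSN7), EER5, and the PCI domain genes AT3G02200 and AT5G15610. The label of proteasome subunits therefore holds for 27 of the 38.

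Values are read counts divided by 1 size factor per library (normalised counts), and tests were made with limma on log2(normalised count + 1) over 15591 loci with a mean of at least 10, with Benjamini-Hochberg adjusted p under 0.05 as the call. All 38 members passed that filter. Libraries held 3418773 to 8435759 reads, and nuclear 18S rRNA took 40.8% and 60.7% of the reads in WT replicates 1 and 2, 30.0% and 19.8% in ar21 and 11.5% and 3.90% in i4g1. A member had 20 to 1449 reads in a library. eIFiso4G1 stood at 368 and 454 in WT, 116 and 123 in ar21 and 24.5 and 45.6 in i4g1. Of the seed storage markers the oil body gene OLEO1 was high, while SESA1 and CRU3 were under 10 in every library. CRA1 ran from 10.4 to 47.6 in the row that was tested and was 0 in its other rows. Both CRA1 and CRU3 are split over several rows, and whether these rows hold all reads of the genes was not tested. Summed leaf and shoot markers (RBCS3B, RBCS1A, RCA and LHCA4, 4 of 4 detected, none at 0) ran from 6124 to 7160 in WT. They ran from 11811 to 12886 in ar21 and 15169 to 15811 in i4g1. RBCS1A alone stood at 4800 and 5727 in WT, and the values do not tell leaf tissue in a pool from expression in the seed itself. Summed seed coat markers (8 of 9 detected) ran from 8423 to 8560, 11663 to 12335 and 10333 to 11030. The seed coat markers did not move together. Log2 fold changes against WT were positive in 7 and negative in 1 in ar21, and positive in 4 and negative in 4 in i4g1. Summed endosperm markers (2 of 3 detected) overlapped between lines, from 81318 to 101414, 82098 to 107081 and 81519 to 104595. The part of rRNA share and of the marker genes' tissues in the member results was not tested.

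Proteasome genes of plants are known to carry the short element TGGGC in their promoters, which the transcription factors NAC053 and NAC078 bind when the proteasome is impaired. A search for TGGGC or its reverse complement GCCCA in the 250 bases before each annotated gene start found a match in 16 of the 38 members (42.1%) and in 12 of the 27 that are 26S subunits (44.4%). Among 29 other 26S subunit genes 15 held a match (51.7%), against 27.6% of the genes tested and 22.7% of all protein-coding genes. The promoters of 3 members that rose in i4g1 are shown because they differ in this element and overlap no other gene. They are given 5′ to 3′ on the gene's strand and end at the base before the gene start, with matches in capitals (sequences from the RefSeq genome TAIR10.1). PBD1 lies on the - strand (chr3:8010863-8011112), as do PBB2 (chr5:16250926-16251175) and PAF1 (chr5:17161157-17161406).
PBD1: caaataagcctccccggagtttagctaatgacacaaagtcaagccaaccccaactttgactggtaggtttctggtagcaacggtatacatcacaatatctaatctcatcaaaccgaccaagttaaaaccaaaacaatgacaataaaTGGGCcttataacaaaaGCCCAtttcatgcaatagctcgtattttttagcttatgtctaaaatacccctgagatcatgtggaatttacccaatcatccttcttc
PBB2: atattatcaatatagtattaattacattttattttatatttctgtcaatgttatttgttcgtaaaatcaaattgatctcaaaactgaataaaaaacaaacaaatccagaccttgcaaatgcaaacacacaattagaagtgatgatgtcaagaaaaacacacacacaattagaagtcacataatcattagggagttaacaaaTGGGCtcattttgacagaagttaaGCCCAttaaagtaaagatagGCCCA
PAF1: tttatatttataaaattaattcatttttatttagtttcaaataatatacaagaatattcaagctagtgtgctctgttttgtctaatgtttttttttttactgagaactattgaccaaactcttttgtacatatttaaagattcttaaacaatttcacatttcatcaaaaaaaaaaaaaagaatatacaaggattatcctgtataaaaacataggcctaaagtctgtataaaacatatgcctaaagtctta
PBD1 holds 2 matches, whose first bases lie 104 and 87 bases before the gene start. PBB2 holds 3, at 49, 25 and 5 bases, and PAF1 holds none. The letters are a description, and binding was not measured. The mRNA of NAC078 stood between 335 and 433 in all 6 libraries and that of NAC053 between 35.4 and 63.4, and neither was called in ar21 or in i4g1 (limma, smallest adjusted p = 0.116). At an unadjusted p under 0.05, 1 of them was lower in ar21, where 29.8% of all loci passed either way.

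Member transcripts were moderately abundant. The mean over all libraries was 192 at the median member, which stood at percentile 76.5 of the loci tested. It ran from 48.5 in AT5G57950 to 640 in PAC1, an alpha subunit. The sum over members was 9058 and 8348 in WT, 9684 and 9527 in ar21 and 10227 and 9598 in i4g1. Both WT libraries were therefore below all 4 mutant libraries in the sum. Of the nuclear reads without rRNA, members took 0.260% and 0.243% in WT, 0.278% and 0.271% in ar21 and 0.269% and 0.274% in i4g1, with WT again below every mutant library.

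**Figure D1:**
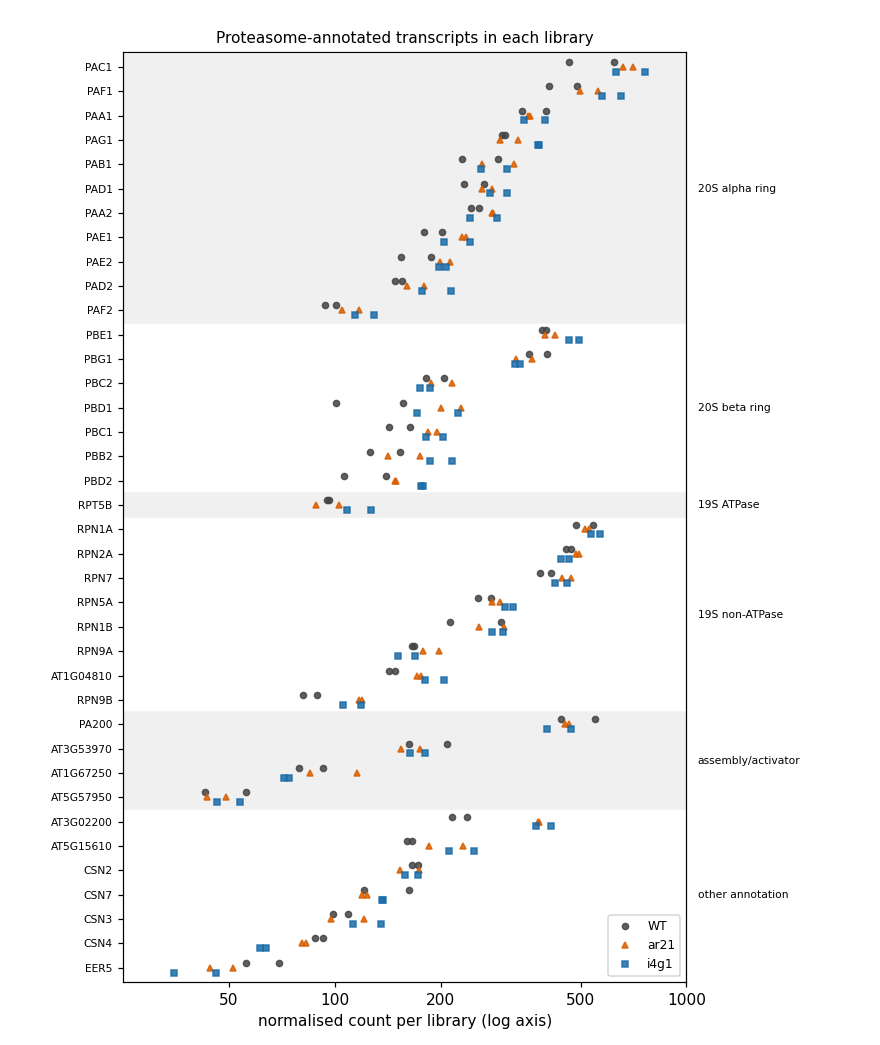
Normalised count (log axis) of each of the 38 members in each library, with members grouped by role. Circles are WT, triangles ar21 and squares i4g1, with 2 libraries a line. PAC1, PAF1 and RPN1A lie at the upper end, and both WT points of AT3G02200 (216 and 238) lie left of all 4 mutant points.

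In ar21 against WT, 2 members rose and 0 fell, so 5.26% of members were called against 14.8% of all loci tested (8.76% higher and 6.03% lower). At an unadjusted p under 0.05, 5 were higher and 0 lower in limma (29.8% of all loci passed either way), while edgeR called 1 higher and 0 lower and DESeq2 called 0. Leaving out WT 1 gave a count of 3, and leaving out WT 2 or either ar21 library gave 1. The edgeR and DESeq2 tests also left out ar21 1, so for ar21 they differ from the main limma fit in libraries as well as in tool. The median log2 fold change of the members was 0.16 in limma, against 0.01 over all loci, and it was 0.10 without ar21 1. Both ar21 libraries stood above both WT libraries in 18 members (47.4%, against 30.4% of all loci) and below both in 2 (5.26%, against 28.5%).

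In i4g1 against WT, 6 members rose and 0 fell (15.8%, against 22.4% of all loci, 12.5% higher and 9.86% lower). At an unadjusted p under 0.05, 13 were higher and 2 lower in limma (35.6% of all loci passed either way), and edgeR and DESeq2 each called 1 higher and 0 lower. The count was 1 without WT 2, ar21 1, ar21 2 or i4g1 1, 3 without i4g1 2, and 2 (1 higher and 1 lower) when libraries were scaled to nuclear loci without rRNA. In each of these edgeR, DESeq2, leave-out and scaling settings the share of all loci called was also below 22.4%. It was still above the share of members called, and stood at 20.9% under nuclear scaling. The median log2 fold change of the members was 0.23, against 0.01 over all loci, and it was 0.15 without i4g1 1 or under that scaling. Both i4g1 libraries stood above both WT libraries in 21 members (55.3%, against 31% of all loci) and below both in 4 (10.5%, against 29.2%). The share of members called either way was thus below that of all loci in both lines. The share called higher was below that of all loci in ar21 (5.26% against 8.76%) and above it in i4g1 (15.8% against 12.5%). Positive values outnumbered negative ones by 28 to 10 in ar21 and by 27 to 11 in i4g1. Both comparisons use the same WT libraries, so their values for a member are not independent.

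**Figure D2:**
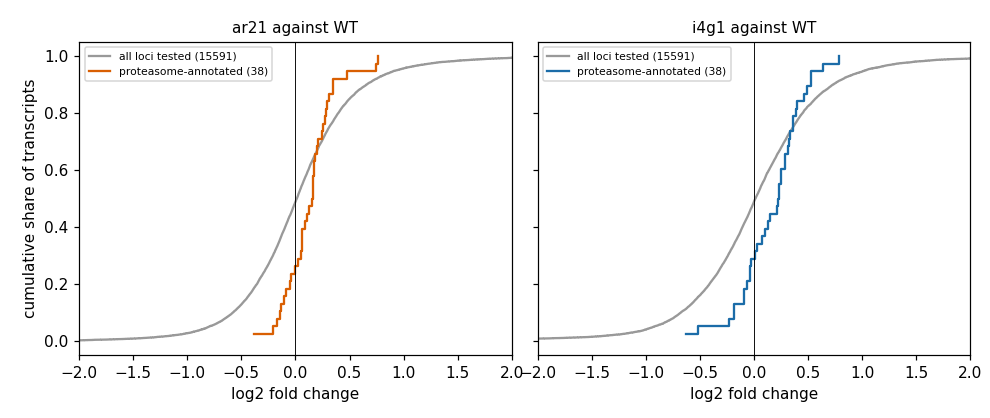
Cumulative share of transcripts against log2 fold change in ar21 (left) and i4g1 (right) against WT, for all 15591 loci tested (grey) and the 38 members (coloured). The member curve is steeper than that of all loci and crosses the middle of the vertical axis to the right of 0, at medians of 0.16 and 0.23. The horizontal axis ends at 2 in both directions, beyond which lie loci that are no members.

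Alpha ring genes, whose products open or close the core, had small positive values. Of the 11, 0 rose in ar21 and 1 rose in i4g1, where 8.76% and 12.5% of all loci did, with medians of 0.17 and 0.25 and 10 and 11 positive values. At an unadjusted p under 0.05, 1 was higher in ar21 and 4 in i4g1, with 0 lower in both, and edgeR and DESeq2 called 0 of the 18 core members in each line. Of all loci, 29.8% in ar21 and 35.6% in i4g1 passed an unadjusted p under 0.05 either way in limma. PAF1 (AT5G42790, chr5:17159044-17161156, - strand), which rose in i4g1, stood at 490 and 406 in WT, 497 and 562 in ar21 and 654 and 575 in i4g1. Both i4g1 libraries were above the other 4. Its log2 fold change in i4g1 was 0.46 ± 0.13 (SE, limma adjusted p = 0.0291, 1.37-fold), and in ar21 it was 0.24 (adjusted p = 0.251). It did not pass when WT 2 was left out (adjusted p = 0.164), nor without ar21 1 (0.0527), ar21 2 (0.0535) or i4g1 1 (0.161).

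PAF2, the other copy of this subunit, stood at 93.9 and 101 in WT, 104 and 117 in ar21 and 129 and 114 in i4g1. The lines did not overlap between WT and either mutant, but the value in i4g1 was 0.32 (adjusted p = 0.184) and it was not called. It shares 1652 bases with a gene on the opposite strand, and the labels do not say whether counting used the strand. PAC1, the most abundant member, stood at 620 and 465 in WT, 705 and 661 in ar21 and 760 and 629 in i4g1. All 4 mutant libraries were above both WT libraries by little, with log2 fold changes of 0.35 ± 0.15 in ar21 (adjusted p = 0.146) and 0.36 ± 0.15 in i4g1 (adjusted p = 0.104). Without WT 1 it was called in both lines, at 0.55 in ar21 (adjusted p = 0.0425) and 0.57 in i4g1 (adjusted p = 0.0270), and with a replicate block in i4g1 (adjusted p = 0.0449). PAG1 stood at 305 and 300 in WT, 333 and 294 in ar21 and 379 and 381 in i4g1. Both i4g1 libraries were above the other 4, while the ar21 libraries lay on either side of WT. Its value in i4g1 was 0.33 ± 0.12 (adjusted p = 0.0733). The remaining alpha genes PAA1, PAA2, PAB1, PAD1, PAD2, PAE1 and PAE2 ranged from -0.05 to 0.29 in ar21 and from 0.01 to 0.36 in i4g1.

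Of the 7 beta ring members 1 rose in ar21 (PBD1), where 8.76% of all loci did, and 3 rose in i4g1 (PBB2, PBD1 and PBD2), where 12.5% of all loci did. The medians were 0.17 and 0.33, and the beta ring was not tested against the alpha ring. PBB2 (AT5G40580, chr5:16248286-16250925, - strand) encodes a catalytic subunit that cuts after basic residues. It stood at 154 and 126 in WT, 175 and 141 in ar21 and 216 and 186 in i4g1. Both i4g1 libraries lay above the other 4, while ar21 overlapped WT. The log2 fold change in i4g1 was 0.52 ± 0.17 (adjusted p = 0.0398, 1.44-fold) and in ar21 0.17 (adjusted p = 0.524). The i4g1 call was lost without WT 2 (0.177), ar21 1 (0.0596), ar21 2 (0.0582), i4g1 1 (0.220) or i4g1 2 (0.0622).

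PBD1 (AT3G22630, chr3:8009540-8010862, - strand) and PBD2 (AT4G14800, chr4:8500193-8502589, + strand) encode the same non-catalytic beta subunit. PBD1 stood at 156 and 101 in WT, 229 and 200 in ar21 and 224 and 171 in i4g1. PBD2 stood at 140 and 106 in WT, 150 and 149 in ar21 and 178 and 175 in i4g1. For both copies every mutant library was above both WT libraries, and WT 2 was the lowest library. PBD1 rose by a log2 fold change of 0.77 ± 0.20 in ar21 (limma adjusted p = 0.0265) and 0.64 ± 0.20 in i4g1 (adjusted p = 0.0423, 1.55-fold). PBD2 rose by 0.53 ± 0.16 in i4g1 (adjusted p = 0.0341, 1.44-fold), and its value in ar21 was 0.29 (adjusted p = 0.264).

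These PBD calls were lost when certain single libraries were left out. Leaving out an ar21 library did not change the log2 fold changes in i4g1. PBD1 in ar21 was lost without WT 2 (log2 fold change 0.45, adjusted p = 0.152), ar21 1 (0.67, 0.221) or ar21 2 (0.86, 0.0914). PBD1 in i4g1 was lost without WT 2 (0.32, 0.267), ar21 1 (0.0693), ar21 2 (0.0697) or i4g1 1 (0.44, 0.266). PBD2 in i4g1 was lost without WT 2 (0.33, 0.170), ar21 1 (0.0662), ar21 2 (0.0668), i4g1 1 (0.132) or i4g1 2 (0.103). Both genes overlap genes on the opposite strand, PBD1 by 449 bases and PBD2 by 262.

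PBE1, a catalytic subunit that cuts after hydrophobic residues, stood at 389 and 398 in WT, 397 and 423 in ar21 and 495 and 463 in i4g1. Both i4g1 libraries were above the other 4, with a log2 fold change of 0.28 ± 0.12 (adjusted p = 0.102), and it was not called. PBG1 had negative values, at 356 and 400 in WT, 327 and 365 in ar21 and 337 and 325 in i4g1. Its i4g1 libraries were below both WT libraries (log2 fold change -0.19 ± 0.13, adjusted p = 0.310). PBC1 and PBC2, copies of one subunit, had values of 0.33 (adjusted p = 0.124) and -0.10 (adjusted p = 0.674) in i4g1, and neither was called.

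**Figure D3:**
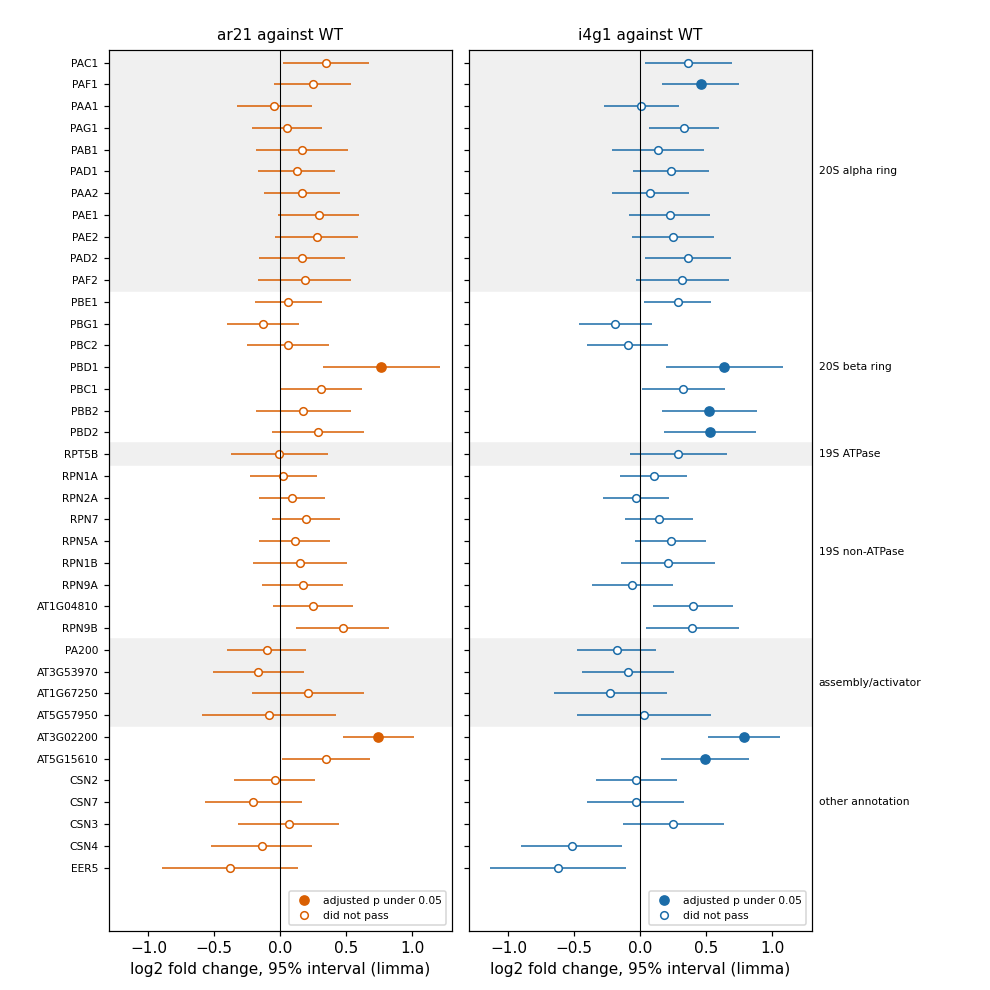
Log2 fold change of each member in ar21 (left) and i4g1 (right) against WT, with the 95% interval from limma and members grouped by role. Filled points passed an adjusted p of 0.05. They are PBD1 and AT3G02200 in ar21, and PAF1, PBD1, PBB2, PBD2, AT3G02200 and AT5G15610 in i4g1, all on the right of 0.

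Members of the 19S cap did not pass in either line, where limma called 14.8% of all loci in ar21 and 22.4% in i4g1. With so few members, a count of 0 says little about the cap. RPT5B, the single ATPase among the members, stood at 96.3 and 95.2 in WT, 88.4 and 102 in ar21 and 108 and 127 in i4g1. Its i4g1 libraries were above the other 4, with a log2 fold change of 0.29 ± 0.17 (adjusted p = 0.247). Of the 8 non-ATPase genes 0 were called in ar21 or in i4g1 by limma, edgeR or DESeq2. When only loci with a mean of at least 50 were tested, AT1G04810 was called higher in i4g1 (limma adjusted p = 0.0449). At an unadjusted p under 0.05 in limma, 1 was higher in ar21 and 2 in i4g1, where 29.8% and 35.6% of all loci passed either way. The medians of these 8 genes were 0.16 in ar21 and 0.18 in i4g1.

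RPN1A and RPN2A, the large scaffold subunits of the cap base, had the highest mean normalised counts of the non-ATPase members. Per kb of transcript RPN7 was higher, at a mean of 255 over all libraries, against 171 for RPN1A and 133 for RPN2A. RPN1A stood at 485 and 543 in WT, 528 and 515 in ar21 and 535 and 568 in i4g1. RPN2A stood at 453 and 470 in WT, 485 and 496 in ar21 and 440 and 464 in i4g1. Both mutants overlapped WT for RPN1A, and for RPN2A only ar21 lay above WT. AT1G04810, annotated as the Rpn2 subunit and so the other copy of RPN2A, stood at 149 and 143 in WT, 176 and 171 in ar21 and 205 and 181 in i4g1. Its log2 fold change was 0.25 ± 0.14 in ar21 (adjusted p = 0.259) and 0.40 ± 0.14 in i4g1 (adjusted p = 0.0599). RPN9B, of the lid, stood at 89.0 and 81.2 in WT, 120 and 117 in ar21 and 119 and 105 in i4g1. All 4 mutant libraries were above WT, with values of 0.47 ± 0.16 in ar21 (adjusted p = 0.0718) and 0.39 ± 0.16 in i4g1 (adjusted p = 0.104). RPN1B, RPN5A, RPN7 and RPN9A ranged from 0.11 to 0.19 in ar21 and from -0.06 to 0.23 in i4g1.

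The 4 assembly and accessory genes had medians of -0.09 in ar21 and -0.14 in i4g1. Limma called 0 of them, against 14.8% of all loci in ar21 and 22.4% in i4g1. At an unadjusted p under 0.05, 0 passed, against 29.8% and 35.6%. The set is too small for these counts to be read as a result. PA200, a cap that acts without ubiquitin recognition, stood at 549 and 440 in WT, 450 and 465 in ar21 and 400 and 469 in i4g1. The lines overlapped. AT1G67250, annotated as UMP1, a chaperone of core assembly in yeast, stood at 79.2 and 92.4 in WT, 116 and 84.9 in ar21 and 74.3 and 71.6 in i4g1. Its i4g1 libraries were the lowest (log2 fold change -0.23 ± 0.20, adjusted p = 0.441). The annotated inhibitor AT3G53970 and AT5G57950 had values between -0.17 and 0.03.

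The call that held under most alternatives belonged to a gene whose annotation names a domain and no subunit of the 26S particle. AT3G02200 (chr3:406340-409200, + strand), annotated as a PCI domain protein, stood at 216 and 238 in WT, 381 and 379 in ar21 and 412 and 373 in i4g1. All 4 mutant libraries were above both WT libraries by a wide margin. It rose by 0.74 ± 0.12 in ar21 (limma adjusted p = 0.0024, 1.67-fold) and by 0.79 ± 0.12 in i4g1 (adjusted p = 0.00106, 1.73-fold). The call in i4g1 held in 15 of 15 alternatives and that in ar21 in 14 of 15, the exception being DESeq2 (adjusted p = 0.118). It overlaps genes on the opposite strand by 156 bases.

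AT5G15610 (chr5:5079458-5082288, + strand), the similar copy of AT3G02200, stood at 161 and 165 in WT, 232 and 185 in ar21 and 248 and 212 in i4g1. The 4 mutant libraries were again above WT. It rose by 0.49 ± 0.15 in i4g1 (adjusted p = 0.0376, 1.40-fold), and its value in ar21 was 0.34 ± 0.15 (adjusted p = 0.153). The i4g1 call was lost when any 1 library was left out (adjusted p from 0.0502 to 0.222, without WT 1 0.0933, WT 2 0.0801, ar21 1 0.0541, ar21 2 0.0528, i4g1 1 0.222 and i4g1 2 0.0502).

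CSN4 and EER5 lay on the other side. The COP9 signalosome removes the NEDD8 modifier from ubiquitin ligases, and its subunit CSN4 stood at 87.8 and 92.4 in WT, 80.4 and 82.7 in ar21 and 63.8 and 61.2 in i4g1. EER5, annotated as a proteasome family protein, stood at 69.5 and 56.0 in WT, 44.2 and 51.2 in ar21 and 35.0 and 46.0 in i4g1. Every mutant library of both genes was below both WT libraries. Neither passed, with log2 fold changes in i4g1 of -0.52 ± 0.18 for CSN4 (adjusted p = 0.0521) and -0.62 ± 0.24 for EER5 (adjusted p = 0.0795). CSN4 was called lower in i4g1 when only loci with a mean of at least 50 were tested (adjusted p = 0.0423) and when libraries were scaled to nuclear loci without rRNA (adjusted p = 0.0347). CSN2, CSN3 and CSN7 ranged from -0.20 to 0.06 in ar21 and from -0.04 to 0.25 in i4g1.

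Between ar21 and i4g1 limma called 0 of 38 members, against 0.282% of all loci (0.115% higher and 0.167% lower in ar21), and edgeR and DESeq2 called 0. At an unadjusted p under 0.05, which 8.81% of all loci passed, AT1G67250 was higher in ar21 (log2 difference 0.44, 95% interval 0.01 to 0.86) and PAG1 lower (-0.28, -0.55 to -0.01). Differences ran from -0.35 (PBB2) to 0.44, with a median of -0.05. Both ar21 libraries stood above both i4g1 libraries in 5 members (13.2%, against 21.5% of all loci) and below both in 10 (26.3%, against 20.8%). The interval for PBB2 ran from -0.71 to 0.01.

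Where both copies of a 26S subunit are members, their coding sequences were 84.7% to 88.1% identical, and the longest identical run was 23 to 53 bases. How reads from identical stretches were counted is not stated in the labels, so the value of a single copy is less certain than the sum of a pair. There were 9 such pairs, and those named here were picked after their values were seen. PBC1 supplied 46.2% ± 0.29 (SD, n = 2) of the PBC pair in WT, 50.5% ± 3.37 in ar21 and 53.6% ± 0.73 in i4g1. RPN9A supplied 63.5% ± 1.72 of its pair in WT, 58.5% ± 1.41 in ar21 and 55.8% ± 0.21 in i4g1. RPN2A supplied 75.6% ± 1.01, 73.4% ± 0.67 and 69.6% ± 2.63. In these 3 of the 9 pairs all 4 mutant libraries lay on 1 side of the WT range, with a smaller share of the more abundant copy in RPN9 and RPN2. The same held for AT3G02200, which supplied 59.0% ± 1.23 of the sum with AT5G15610 in WT, 65.4% ± 3.54 in ar21 and 63.8% ± 0.97 in i4g1. PAE1 and PAE2 were close to equal in every line (PAE1 50.7% ± 1.35, 50.9% ± 0.72 and 50.2% ± 3.82). No test was made of these shares.

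The level of each subunit, as the normalised count per kb of transcript with both copies summed and non-members included, placed the 14 positions of the 20S core within a narrow span. In WT it ran from 223 (PAG) to 478 (PAA), with a median of 335 and a ratio of 2.15 between the ends. In ar21 the median was 379 (231 to 560) and in i4g1 387 (245 to 596). The 6 ATPase positions had medians of 314, 309 and 314 in WT, ar21 and i4g1. The 13 non-ATPase positions had medians of 199.5, 207 and 239. The medians of the core and of the non-ATPases were thus higher in both mutants than in WT and those of the ATPases were not, with no test made. Among the non-ATPase positions RPN13, a ubiquitin receptor, was lowest in WT (46.6 per kb) and the small DSS1 subunit highest (523 per kb). Neighbours such as PBC (316 ± 28.0 per kb, SD, n = 2) and PBE (313 ± 10.1 per kb) in WT differed by less than the spread of their libraries.

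**Figure D4:**
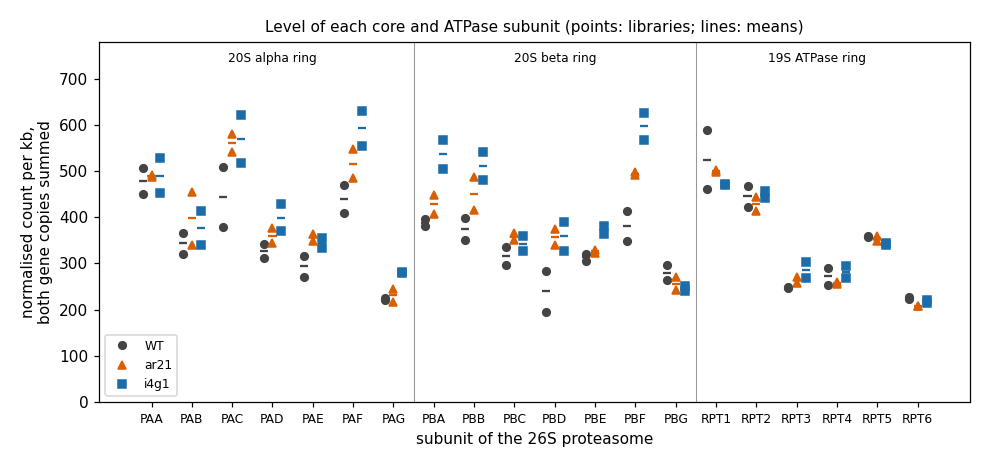
Normalised count per kb of transcript for each position of the 20S core and the 19S ATPase ring, with the gene copies of a position summed. Points are libraries (circles WT, triangles ar21, squares i4g1) and short lines are the means of 2 libraries. For PBF the i4g1 points lie highest and the WT points lowest, while RPT5 and RPT6 differ little between lines.

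The 26S subunit genes that lack the word in their annotation give the rest of the particle. Of 27 tested, 0 were called in ar21 by limma, edgeR or DESeq2 (2 higher and 0 lower at an unadjusted p under 0.05), and 2 rose in ar21 without WT 1. Of all loci, 29.8% passed an unadjusted p under 0.05 either way in ar21 in limma. In i4g1 4 of the 27 rose and 1 fell, where 12.5% of all loci rose and 9.86% fell, so the share that rose was near the background. The number that rose was 2 under nuclear scaling and by edgeR, and 1 by DESeq2. PBF1, a non-catalytic beta subunit, stood at 442 and 372 in WT, 533 and 526 in ar21 and 670 and 607 in i4g1. The 4 mutant libraries were above WT, and the log2 fold change of 0.65 in i4g1 (adjusted p = 0.00344) was called in 15 of 15 alternatives. PBA1, a catalytic subunit, stood at 439 and 420 in WT, 496 and 450 in ar21 and 627 and 558 in i4g1. It rose by 0.46 in i4g1 (adjusted p = 0.0177), with the call lost without WT 2 or i4g1 1 (adjusted p up to 0.109). PBB1, the other copy of PBB2, stood at 383 and 347 in WT, 483 and 422 in ar21 and 513 and 463 in i4g1. It rose by 0.42 in i4g1 (adjusted p = 0.0337) and DSS1(I) by 0.46 (adjusted p = 0.0384), each called in 5 of 15 alternatives. PBB1 kept its call only without WT 1 among the leave-out settings (adjusted p up to 0.172), and DSS1(I) only without i4g1 2 (adjusted p up to 0.260).

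With these genes added, 6 of 11 beta ring genes rose in i4g1, against 1 of 12 alpha ring genes, 0 of 11 ATPases and 1 of 20 non-ATPases, where 12.5% of all loci did. No test compared these groups. The beta count was 1 without WT 2 or i4g1 1, 2 without ar21 1 or ar21 2, 3 without i4g1 2 and 6 without WT 1. By edgeR it was 2 and by DESeq2 1, and it was 2 under nuclear scaling, with no filter on low values or with only the 4 libraries compared. PBE2, the other copy of PBE1, was at 50.5 to 66.3 in all 6 libraries. The ubiquitin receptors RPN10 (408 to 520) and RPN13 (70.0 to 98.5) were not called. The gene that fell, RPT1B, stood at 185 and 185 in WT, 117 and 171 in ar21 and 72.5 and 112 in i4g1. It had a log2 fold change of -1.03 in i4g1 (adjusted p = 0.00626), lost without i4g1 1 (adjusted p = 0.0571). Its more abundant copy RPT1A had a value of -0.07 (adjusted p = 0.745).

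Genes that make ubiquitin or bring substrates to the particle were read from lists of non-members. UBQ5, which encodes ubiquitin fused to a ribosomal protein, stood at 909 and 1050 in WT, 1601 and 1495 in ar21 and 1887 and 1701 in i4g1. It rose by 0.66 in ar21 (adjusted p = 0.00441, lost without ar21 1, adjusted p = 0.0810) and by 0.87 in i4g1 (adjusted p = 0.000544). Of 8 ubiquitin and activating enzyme genes tested, 3 rose in ar21 (UBQ1, UBQ2 and UBQ5) and 2 in i4g1 (UBQ3 and UBQ5). Of all loci, 8.76% and 12.5% rose. Values were positive in 6 of these genes and negative in 2 in each line. The negative values were those of UBQ11 (-0.18 in ar21 and -0.25 in i4g1) and UBQ14 (-0.16 and -0.33). Neither was called (limma, smallest adjusted p = 0.0592, UBQ14 in i4g1), but nuclear scaling gave 1 lower call on this list in i4g1. Further ubiquitin genes on the list did not reach the filter and were not tested. By edgeR and DESeq2 0 rose in ar21 and 1 in i4g1. Without ar21 1, 0 rose in ar21 and 1 in i4g1, and without WT 1, 1 rose in each line. The i4g1 count was also 1 without ar21 2 or i4g1 1. The adjusted p reached 0.171 for UBQ1 and 0.328 for UBQ2 in ar21, each lost without WT 1 or ar21 1, and 0.221 for UBQ3 in i4g1, which kept its call only without i4g1 2 when 1 library was left out. AT3G53230, annotated as a CDC48-type ATPase, which extracts ubiquitylated proteins, stood at 403 and 344 in WT, 174 and 186 in ar21 and 190 and 171 in i4g1. It fell by 1.05 on the log2 scale in ar21 (adjusted p = 0.000586) and by 1.04 in i4g1 (adjusted p = 0.000374), in 15 of 15 alternatives each. Its relative CDC48A (1663 to 1867 over all libraries) was not called.

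The other calls in the lists of non-members were made in i4g1. Of 14 shuttle and CDC48 genes tested, 1 rose (RAD23B, which carries ubiquitylated proteins to the proteasome, 0.50) and 2 fell (AT3G53230 and RAD23C, -0.45), against 12.5% and 9.86% of all loci. By edgeR and DESeq2 0 rose and 1 fell. RAD23B was lost without WT 2, ar21 1, ar21 2, i4g1 1 or i4g1 2 (adjusted p up to 0.129), and RAD23C without any 1 library other than WT 2 (adjusted p up to 0.207). CSN8 was the single gene called among 9 COP9 signalosome genes, members included. It stood at 101 and 78.4 in WT, 140 and 108 in ar21 and 163 and 160 in i4g1. All 4 mutant libraries were above WT, and it rose by 0.85 in i4g1 (limma adjusted p = 0.00635), lost with DESeq2 alone among 15 alternatives. AT2G26780, annotated only as an ARM repeat protein, fell from 268 and 249 in WT to 158 and 181 in i4g1 by 0.61 on the log2 scale (adjusted p = 0.00838, 0.0643 without i4g1 1, and lost with DESeq2), with ar21 between them at 195 and 209.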

How the data were processed

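RNA was measured by sequencing of poly(A)-selected libraries from 2 WT, 2 ar21 and 2 i4g1 seed pools. The deposited signal is a read count per locus divided by 1 size factor per library. The tools named are DESeq2 1.12.4, HTSeq 0.6.0, StringTie 1.0.3 and STAR 2.4.0j, with build TAIR10, per the submitters' processing notes. Parameters and strand handling are not given in the sources used here. Every nonzero value was a whole multiple of 1 step per library (100% within 0.001). Count tests used the whole reads of 5 libraries. They left out ar21 replicate 1, whose step of 1.005 was near 1, although its values too were whole multiples of the step. Reads per library (3418773 to 8435759) limit the precision of low members, and intervals cover 95%.

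Members were matched by annotation, and their positions, copies and promoters were read from TAIR10.1 (38 of 38 matched). The main test was limma 3.58.1 in R 4.3.3 on log2(normalised count + 1) with 1 mean per line, all 6 libraries in 1 fit (3 residual degrees of freedom), an intensity trend, a mean of at least 10, two-sided p-values and Benjamini-Hochberg adjustment over 15591 loci. Fold changes are on that log scale. Alternatives were a pseudocount of 5, no filter or a mean of at least 50, TMM scaling, scaling to nuclear loci without rRNA, edgeR 4.0.16 and DESeq2 1.42.0 on the recovered reads, a replicate block, each library left out, and only the 4 libraries compared. Scripts were tested on simulated data. Full values were given for called members, the 5 most abundant, pairs with 1 copy called, and the catalytic and ubiquitin-binding subunits. Other genes were named after their values were seen. The members, roles and gene lists were chosen with earlier results of these data known. Replicate numbers come from the titles, and nothing says they mark a shared plant or day.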

Additional observations from a re-analysis of the deposited data

How the results depend on the processing

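The counts of members called changed with the setting and with single libraries left out. The direction of the members' median in each mutant against WT did not change under any alternative run. In ar21 the count of 2 was 1 with no filter on low values, 1 by edgeR and 0 by DESeq2 on 5 libraries, and 1 to 3 with each library left out. In i4g1 the count of 6 was 8 with a mean of at least 50 (7 higher and 1 lower, with AT1G04810 and CSN4 gained), 1 with no filter, 2 with scaling to nuclear loci without rRNA (1 higher and 1 lower, CSN4), 1 by edgeR, 1 by DESeq2, 1 with only the 4 libraries compared, and 1 to 6 with each library left out. The share of all tested loci called in i4g1 also moved, from 22.4% to 30.1% with a mean of at least 50 and 12.4% with no filter. It was 20.9% under nuclear scaling and 16.8% with only the 4 libraries compared. In ar21 it moved from 14.8% to 7.31% with no filter. The median log2 fold change of 0.16 in ar21 was 0.093 by edgeR and 0.093 by DESeq2. This median ran from 0.10 to 0.17 with each library left out. In i4g1 the median of 0.23 was 0.15 under nuclear scaling, which moved the median of all loci to -0.06, and ran from 0.15 to 0.28 with each library left out. Between ar21 and i4g1 the median of -0.05 became 0.015 under nuclear scaling and ran from -0.09 to -0.02 with each library left out, with 0 members called throughout. The cause of these shifts was not tested, apart from the single ar21 library in the count tests. For single members, 1645 values kept their side of the threshold, 56 lost a call, 6 gained one and 0 reversed. All loci called numbered 2305 in ar21 (522 without ar21 1, 827 without ar21 2, 682 by edgeR, 372 by DESeq2), 3489 in i4g1 (2757 by edgeR, 1296 by DESeq2) and 44 between the mutants (2 by edgeR, 7 by DESeq2).

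Over 15591 loci the differences between replicates 1 and 2 correlated at -0.08 (WT with ar21), -0.03 (WT with i4g1) and 0.12 (ar21 with i4g1). Such correlations over all loci cannot tell whether samples of the same replicate number shared a plant or day. With the replicate block 2 members were called in ar21, 7 in i4g1 and 0 between the mutants, and the medians stayed at 0.16, 0.23 and -0.05. All loci called went from 2305 to 2456 in ar21, from 3489 to 3674 in i4g1 and from 44 to 81 between the mutants.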
